A study of Caenorhabditis elegans with 2 samples.

Results

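The genes din-1, daf-12, daf-9 and daf-36 of the worm steroid hormone pathway were examined, 4 of 46890 annotated genes, for peaks of the zinc finger protein SMA-9. They were chosen by values in these same peak lists and by their place in the pathway, so the peak signals, ranks and counts at the members are descriptions without a test. Binding was measured by chromatin immunoprecipitation and sequencing (ChIP-seq) of eGFP-tagged SMA-9 in whole L2 larvae of Caenorhabditis elegans, with males and females pooled per the labels. The strain was OP130, which carries the unc-119(ed3) allele on III and the inserted transgene wgIs130, and the only group had 2 biological replicates of it. There was no untagged group. The authors' peak lists derive from a control alignment as well, which was not analysed here as data of its own, and whole larvae mix all tissues, so a peak cannot be placed in a cell type.

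DAF-12 is a nuclear receptor that switches worms between reproductive growth and the dauer diapause, a choice that is made around the L2 stage. Its ligands, the dafachronic acids, are made from cholesterol by enzymes that include the oxygenase DAF-36, which acts early, and the cytochrome P450 DAF-9, which acts last. Without ligand, DAF-12 works with its corepressor DIN-1, a relative of the human protein SHARP, and a short form of DIN-1 is known to act in this complex. SMA-9 itself is a relative of fly Schnurri that works in the BMP-like body size pathway.

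Each replicate and the pooled reads had a relaxed list of 30000 peaks, and a thresholded list held the 125 peaks of highest pooled signal. The authors label the relaxed lists as peaks and background for input to IDR, a measure of agreement between replicates. The thresholded list is labelled as passing an IDR threshold. An entry outside the thresholded list is called a peak here but may be background. Signal is the authors' value per peak with no stated scale, and its median was 14.1 in the pooled list, 9.50 in replicate 1 and 6.34 in replicate 2. Rank 1 is the highest signal of a list. A peak was assigned to a gene when its summit lay in the gene body or up to 5 kb upstream, in ce11 coordinates. Read depth is not given by these lists, so no interval was computed.

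The 4 genes held 29 pooled peaks, of which 2 were thresholded, and both of these were at din-1. A thresholded summit was assigned in this way to 0.766% of the 19973 protein-coding genes, and 2 or more to 0.0751%, which is 15 genes. Since the window grows with the gene, the share among the 228 coding genes at least as long as din-1 was 3.07%. The other 27 pooled peaks at the members ranked 4608 or lower, and daf-12, daf-9 and daf-36 held 0 thresholded peaks.

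The sequences under the thresholded din-1 peaks and under the strongest pooled peak of the other 3 genes, that near daf-9, are shown because they carry the contrasts described below. They were read from the RefSeq copy of the WBcel235 assembly, whose coordinates are those of ce11. Capitals mark matches on either strand to any of 9 motifs. SMAD proteins are known to bind the SMAD box, searched as GTCT, and a GC-rich site, searched as GGCGCC. The GA repeat was searched as GAGAGA, the E-box as CACGTG and the GC box as GGGCGG. The GATA site was searched as GATA with A or T before it and A or G after it. For nuclear receptors the common hexamer AGGTCA was searched, together with 2 hexamers of the kind DAF-12 is known to bind, written here as AGTACA or, in the other form, AGTGCA. Overlapping matches were all kept. Bases annotated as untranslated exon of a protein-coding transcript were left out, which removed 83 of the 200 bases around the internal din-1 summit. The stretch that remains there lies inside the noncoding genes F07A11.10 and F07A11.15 of the opposite strand.

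din-1 upstream peak, pooled rank 31, chrII:11635864-11636063, minus strand as the gene: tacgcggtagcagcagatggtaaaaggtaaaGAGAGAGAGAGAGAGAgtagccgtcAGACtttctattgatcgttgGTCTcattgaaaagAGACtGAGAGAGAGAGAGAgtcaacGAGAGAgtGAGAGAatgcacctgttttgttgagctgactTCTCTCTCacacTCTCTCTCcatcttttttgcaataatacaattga

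din-1 internal peak, pooled rank 52, chrII:11620079-11620195, minus strand as the gene: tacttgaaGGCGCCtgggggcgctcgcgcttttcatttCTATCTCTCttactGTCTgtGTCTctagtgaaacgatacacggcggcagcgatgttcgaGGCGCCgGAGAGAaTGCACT

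daf-9 upstream peak, pooled rank 4608, chrX:6194164-6194363, plus strand as the gene: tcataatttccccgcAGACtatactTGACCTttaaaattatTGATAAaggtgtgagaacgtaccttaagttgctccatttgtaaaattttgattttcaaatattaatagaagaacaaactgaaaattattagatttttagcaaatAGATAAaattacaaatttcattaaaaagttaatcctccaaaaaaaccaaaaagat

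The gene din-1 (WBGene00008549, II:11614770-11633609, minus strand) encodes the corepressor and spans 18840 bp with 7 annotated transcripts from 6 starts. Its long models start at or near the 5' end and have up to 2407 codons. The short model F07A11.6d starts 13.53 kb into the gene and has 567 codons after a 932 bp 5' untranslated stretch. Another short model, F07A11.6g, starts 16.49 kb in with 186 codons.

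The stronger din-1 peak had a pooled signal of 54.1 and ranked 31. Its summit at II:11635964 lay between genes, 2355 bp upstream of the 5' end of din-1. The nearest annotated start was that of ZK20.9, a small nucleolar RNA gene on the opposite strand at II:11635225-11635327, 739 bp away. The signal was 39.7 in replicate 1 (rank 23) and 7.99 in replicate 2 (rank 6889). The peak was therefore among the strongest of replicate 1 and far down the list of replicate 2, at 4.17 and 1.26 times the median of each list. The summit of replicate 1 was at the same base as the pooled summit and that of replicate 2 was 41 bp away.

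The other din-1 peak had a pooled signal of 46.7 and ranked 52. Its summit at II:11620096 lay 18 bp upstream of the start of F07A11.6d, in an intron of the long models. The same base is inside exons of a pair of noncoding genes on the opposite strand, F07A11.10 (ncRNA, II:11619929-11620215) and F07A11.15 (snoRNA, II:11620025-11620295), so the summit cannot be assigned to any of these starts alone. The signal was 19.1 in replicate 1 (rank 424) and 28.5 in replicate 2 (rank 10). This peak was one of the strongest of replicate 2, at 4.50 times the list median, and stood at 2.01 times the median in replicate 1. The summits lay 57 bp from the pooled summit in replicate 1 and 1 bp in replicate 2.

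The replicates thus placed their highest signal at din-1 on opposite sides of the long isoforms' starts. In replicate 1 the upstream peak was the higher of the pair, and in replicate 2 the internal peak was. The pair lie 15.87 kb apart. On the log2 scale, the signal of replicate 1 divided by that of replicate 2 gave 2.31 at the upstream peak and -0.57 at the internal peak. Over the 120 thresholded peaks present in both replicate lists the median was 0.96 with an SD over peaks of 0.82. From the highest ratio, the upstream peak was number 7 of these 120, and from the lowest the internal peak was number 2. The thresholded peaks left out of this order all had a peak in replicate 1 and none in replicate 2, so they have no ratio. Among the 15 coding genes with 2 or more thresholded summits, din-1 had the widest difference between its peaks, 2.89 on the log2 scale against a median of 0.88. That comparison was made after the values were seen, some of these genes share peaks, and with 2 libraries it was not tested. The genes of the next widest differences were pkg-2 at 1.58 and ZK470.2 at 1.53.

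**Figure D1:**
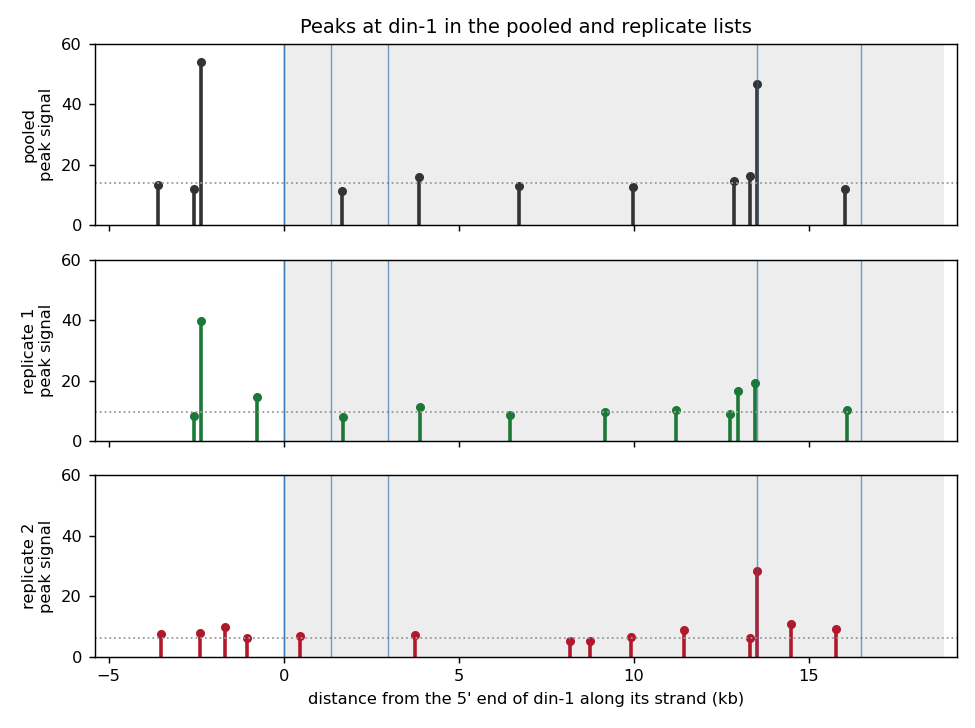
Peak signal (vertical axis, authors' units, 0 to 60) of every peak in din-1 or up to 5 kb upstream against distance from the gene's 5' end along its strand (kb), in the pooled list, replicate 1 and replicate 2. Grey shading is the gene body, blue lines are annotated transcript starts and the dotted line is the median signal of the list. The peak 2355 bp upstream stands out in replicate 1 (39.7) and the peak next to the start at 13.53 kb stands out in replicate 2 (28.5).

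Taken by replicate, each library still placed din-1 among its 125 strongest peaks, through the upstream peak in replicate 1 and the internal peak in replicate 2. Of all coding genes, 0.756% had one of the 125 strongest peaks of replicate 1 and 0.931% one of those of replicate 2. Neither din-1 peak was in the top 125 of both replicates. The peak of lowest signal in the thresholded list, 164 bp from the start of C39E9.8, had 34.6, and the strongest pooled peak outside it, in an intron of E01G4.3, had 34.5. Both din-1 peaks were well above this limit.

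**Figure D2:**
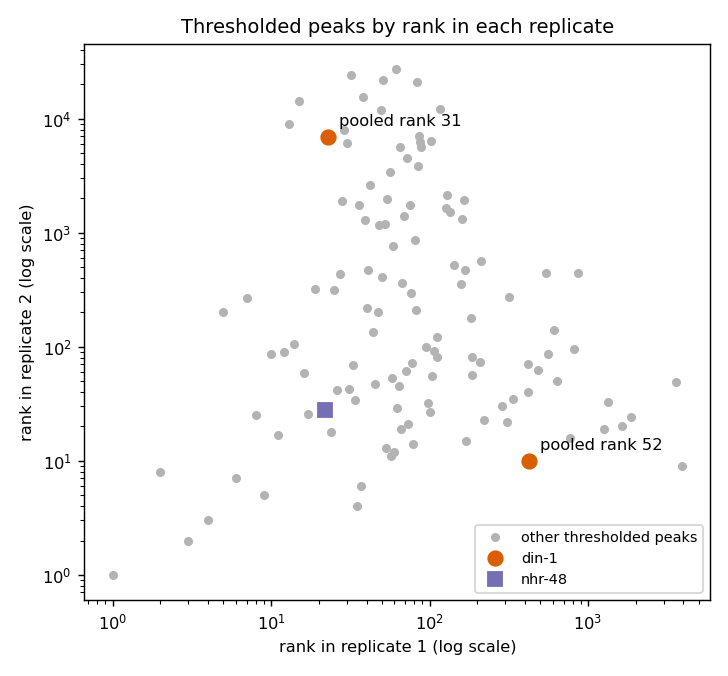
Rank in replicate 1 (horizontal) against rank in replicate 2 (vertical), both on log scales, for the 120 thresholded peaks present in both lists. The din-1 peaks (orange) lie at ranks 23 and 6889 and at ranks 424 and 10, while the peak at the DAF-12 relative nhr-48 (purple square) lies at 22 and 28.

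The peaks most like the upstream din-1 peak in their ratio between the 2 libraries were spread over several classes of gene. The 5 nearest in log2 ratio lay nearest to starts of the noncoding genes F28C1.14 (2.30) and ZK829.13 (2.27), of T27F6.8 (2.23), of cdc-48.1 (2.17), which encodes an AAA ATPase, and of the piRNA gene 21ur-11746 (2.47). Their pooled ranks ran from 60 to 104. In pooled rank the neighbours just above were peaks nearest K08B4.41 (28), 21ur-11746 (29) and the nuclear receptor gene nhr-88 (30). Those just below were nearest ZK470.4 (32), the SL2 RNA gene sls-2.2 (33) and the alcohol dehydrogenase gene adh-1 (34). The 6 neighbours had log2 ratios from 0.29 to 1.67, all lower than that of the upstream din-1 peak.

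The sequences of the din-1 peaks differed in base composition. In the 200 bp around the summit, GC content was 60% at the internal peak, the second highest value of the 125 thresholded peaks, and 43% at the upstream peak, number 86. The median over the thresholded list was 47%. The upstream window held 17 overlapping matches to GAGAGA in several runs and 3 to GTCT. The internal window held 2 matches to the GC-rich SMAD site, 2 to the SMAD box and 2 to the GA repeat. It also held 1 GATA site and 1 match to the DAF-12 hexamer AGTGCA. In the central 100 bp the upstream peak kept 7 matches to the GA repeat and all 3 SMAD boxes. There the internal peak kept 1 GC-rich SMAD site, 1 GA repeat, both SMAD boxes and the AGTGCA match, and no GATA site. In windows of 200 bp the GC-rich site GGCGCC occurs in 1.27% of all pooled and 11.2% of thresholded windows. For GAGAGA these shares are 10.4% and 55.2%. GTCT is common, at 60.7% and 88.8%. The DAF-12 hexamer AGTGCA was in 7.05% of pooled and 14.4% of thresholded windows, and the other hexamer, AGTACA, in 8.43% and 10.4%. The GATA site was in 39.1% and 43.2% of them. In windows of 100 bp the pooled and thresholded shares were 0.553% and 5.6% for GGCGCC and 5.45% and 30.4% for GAGAGA. At that length they were 37.2% and 68.0% for GTCT and 3.48% and 4.8% for AGTGCA.

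The other 9 pooled peaks at din-1 had signals from 11.3 to 16.5. The highest of these, rank 8508, lay 225 bp upstream of F07A11.6d and overlaps the internal thresholded peak. Replicate 1 had the same peak of rank 424 beneath both. The peak of rank 23436, 2558 bp upstream of the gene, likewise overlaps the upstream thresholded peak, and the replicate 2 peak of rank 6889 lies under both, so these are not independent of their neighbours. Of all 11 pooled peaks, 6 were overlapped by a peak of each replicate, 3 by replicate 1 alone and 2 by replicate 2 alone. Replicate lists also had peaks with no pooled counterpart, among them a replicate 1 peak of signal 14.6 (rank 2289) 758 bp upstream of the gene, near the noncoding gene ZK20.8, and a replicate 2 peak of signal 10.8 (rank 1501) 969 bp downstream of the F07A11.6d start. Replicate 2 also had a peak of 9.81 (rank 2619) inside ZK20.9, 1669 bp upstream of din-1. Around the start of the short model, replicate 1 had a further peak of 16.6 (rank 1085) 566 bp upstream, next to the pooled peak of rank 12851. The first pooled summit outside the window on the upstream side was 5853 bp from the gene, at rank 9009.

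The receptor gene daf-12 (WBGene00000908, X:10635908-10666875, plus strand) is 30968 bp long, with 10 transcripts from 9 starts. It held 10 pooled peaks with signals from 11.4 to 17.2, near the median of the pooled list. The strongest ranked 7010. Its summit lay 163 bp downstream of the most distal start, in the first intron of that transcript, with a signal of 17.5 in replicate 1 (rank 766). The overlapping peak of replicate 2 had 6.64 (rank 13179) with its summit 268 bp away. A pooled peak at least as strong was found at 40.3% of coding genes and at 48 of the 56 coding genes at least as long as daf-12. The rank of its best peak is thus a common value for a gene of this length.

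A second pooled peak in the same intron overlapped replicate peaks of better rank than its own. The pooled peak 1606 bp downstream of the distal start had a signal of 15.6 (rank 10510) and a GC content of 60%. The overlapping peak of replicate 1 had 17.4 (rank 790) and that of replicate 2 had 11.4 (rank 1018), the best of replicate 2 at the gene. Their summits lay 191 and 92 bp from the pooled summit, on opposite sides of it and 283 bp apart. With summits required to lie at most 100 bp from the pooled summit, this peak was not found in both replicates. Its window held 1 SMAD box and 1 match to the DAF-12 hexamer AGTGCA. Neither match lies wholly in the central 100 bp. The hexamer was present in 4 of the 10 daf-12 windows of 200 bp, against 7.05% of all pooled windows. In windows of 100 bp it was in 1 of the 10, against 3.48%. These small counts were not tested.

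At the downstream cluster of daf-12 starts, which serve models of 678 to 719 codons, pooled peaks lay 45 bp upstream of the start at 23.43 kb (signal 11.4, rank 27657) and 249 bp downstream of that at 23.78 kb (14.6, rank 13302). The latter had 16.3 in replicate 1 (rank 1220) and 5.19 in replicate 2 (rank 24241), where the summit was 377 bp away. Of the 10 pooled peaks, 4 were overlapped in both replicates, 4 in replicate 1 alone, 1 in replicate 2 alone and 1 in neither. The nearest pooled summits outside the window were 5186 bp upstream of the gene (rank 10059) and 473 bp past its end, the latter at rank 2257 with a signal of 21.3. That downstream peak is stronger than any assigned to daf-12.

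The gene daf-9 (WBGene00000905, X:6196927-6200823, plus strand) makes the P450 enzyme and has 3 transcripts. It held 5 pooled peaks with signals from 12.3 to 18.8. The strongest, rank 4608, lay 2663 bp upstream of daf-9 and 23 bp upstream of the homeobox gene ceh-54, which is transcribed the other way. It had a signal of 14.6 in replicate 1 (rank 2271) and no overlapping peak in the list of replicate 2. Its window had the lowest GC content of the 3 sequences shown, 25%, with 2 GATA sites, 1 SMAD box and 1 match to AGGTCA. None of these matches lies wholly in the central 100 bp. The AGGTCA hexamer was in 4.84% of pooled windows and 5.6% of thresholded windows. Pooled peaks of rank 6186 (17.7) and 6900 (17.3) lay in coding exons of daf-9, and the former was found in replicate 2 alone. Only the latter was overlapped in both replicates, at ranks 12742 and 22439. A peak as strong as the best at daf-9 was found at 29.2% of coding genes.

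The gene daf-36 (WBGene00007536, V:10223513-10225710, minus strand) encodes the Rieske-type oxygenase and is the shortest of the 4, with 1 transcript. It held 3 pooled peaks. The strongest, of signal 17.3 and rank 6930, lay in a coding exon 1480 bp downstream of the start, with 8.49 in replicate 1 (rank 20635) and 8.33 in replicate 2 (rank 5790). The peak nearest the start, 468 bp upstream, had a signal of 12.7 (rank 21165) and no counterpart in replicate 1. The third, 959 bp upstream, was near the bottom of the pooled list (rank 29376) and had a GC content of 20.5%. Both upstream pooled peaks were overlapped by the same replicate 2 peak (rank 26197). A peak as strong as the best one was found at 39.99% of coding genes.

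**Figure D3:**
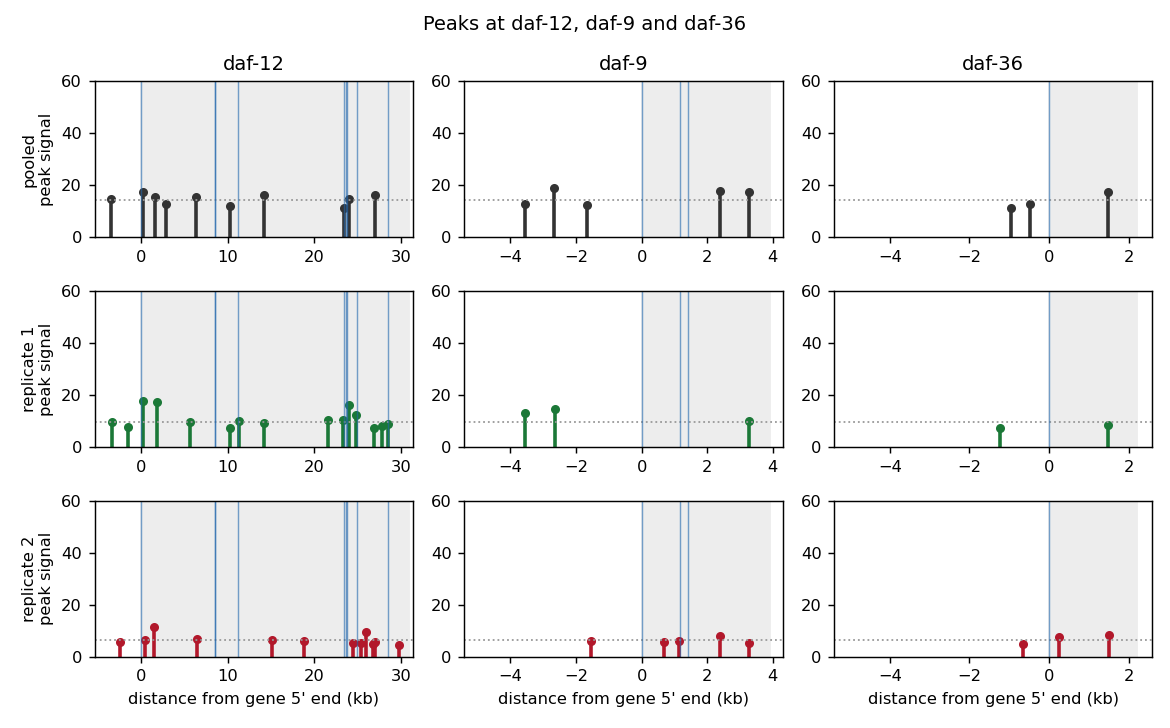
Peak signal (vertical axes, authors' units, 0 to 60 as for din-1) against distance from the gene's 5' end (kb) for daf-12, daf-9 and daf-36, in the pooled list and each replicate. Grey shading is the gene body, blue lines are annotated starts and dotted lines are list medians. No peak of the 3 genes rises above 18.8 in the pooled list.

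The 4 genes together had a peak in both replicates under 13 of 29 pooled peaks (44.8%), against 33.8% of all 30000 pooled peaks. Some replicate peaks lie under more than 1 of the 29, and an overlap of 1 bp was enough. With summits at most 100 bp apart, the count was 2 at din-1 and 1 each at daf-12, daf-9 and daf-36. The share of all pooled peaks was not computed under that rule, and the difference was not tested. Peak density was 0.461 per kb at din-1, 0.278 at daf-12, 0.562 at daf-9 and 0.417 at daf-36, against 0.299 over the 6 chromosomes. These are unlike regions, since the member values cover a gene and 5 kb upstream and the last value covers all sequence. The values at daf-9 and daf-36 rest on 5 and 3 pooled peaks, and the upstream peaks at daf-9 lie nearest the start of ceh-54. The E-box was in 0 of the 29 windows, against 3.40% of all pooled and 19.2% of thresholded windows. The GC box was also in 0 of the 29, against 2.83% and 14.4%. Since 27 of the 29 are not thresholded, the pooled shares are the nearer comparison. At shares that low, 29 windows are too few for a count of 0 to show a lack of either motif. The GA repeat was in 6 of the 29 (20.7%), against 10.4% of all pooled and 55.2% of thresholded windows, and 5 of these were at din-1. In windows of 100 bp it was in 4 of the 29, 3 of them at din-1, against 5.45% and 30.4%. These counts were not tested.

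Genes of 4 lists around the pathway were read with the same window. Of their 22 genes, 18 are protein-coding. Among the 18, a pooled peak of rank 1000 or better lay at 6, against 7.28% of all coding genes, and a thresholded peak lay at 1. Of the 4 members, din-1 alone had such a peak. The counts were not tested, and gene length was not matched.

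Receptor relatives were nhr-48, the closest worm relative of DAF-12, and nhr-8, a related receptor that acts in sterol balance. At nhr-48 (X:15708213-15716875, plus strand) a thresholded peak of signal 60.1 (rank 22) lay 569 bp upstream of the gene. It had 39.8 in replicate 1 (rank 22) and 20.8 in replicate 2 (rank 28), so the libraries ranked it alike, unlike the peaks at din-1. At nhr-8 there were 0 pooled peaks.

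Of the 7 genes of hormone synthesis and sterol supply, nhr-8 included, 0 had a peak of rank 1000 or better. The best was at hsd-1, a hydroxysteroid dehydrogenase gene, at rank 2298 with a signal of 21.2 in an intron. Replicate 2 had it at rank 190 and replicate 1 had no overlapping peak. The short-chain dehydrogenase gene dhs-16 followed at rank 4504, and emb-8, the P450 reductase gene, ncr-1 and ncr-2, which encode relatives of the cholesterol transporter NPC1, and the sterol methyltransferase gene strm-1 ranked between 8785 and 29615.

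Among the 4 microRNA genes, which include the let-7 family members known to act with DAF-12 in developmental timing, mir-48 and mir-241 shared a thresholded peak of signal 35.7 (rank 117). It lay 4112 bp upstream of mir-48 and 2338 bp upstream of mir-241, and nearer to F56A12.10, whose start was 922 bp away. Its signal was 18.5 in replicate 1 (rank 545) and 12.8 in replicate 2 (rank 441). The best pooled ranks were 1583 at let-7 and 2749 at mir-84. The let-7 peak lay 2038 bp upstream, in a coding exon of C05G5.2 and 56 bp from that gene's start, with no overlapping peak in replicate 2. The mir-84 peak lay 3026 bp upstream, and its nearest annotated start was that of the piRNA gene 21ur-15362, 1043 bp away. Of 3 timing genes, lin-42, the worm relative of period, had a peak of rank 176 (signal 31.7) in exons of the noncoding genes F47F6.13 and F47F6.15 inside its intron. The RNA-binding protein gene lin-28 had rank 1696, 19 bp upstream of an annotated start, and hbl-1, a hunchback relative, had 8668.

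Of the 7 dauer signalling genes upstream of DAF-12, 4 had a peak of rank 1000 or better and 0 had a thresholded one. The guanylyl cyclase gene daf-11 had rank 138 (signal 33.4), with 14.2 in replicate 1 (rank 2711) and 19.1 in replicate 2 (rank 37). The FOXO gene daf-16 had rank 157 (32.4), with 27.0 in replicate 1 (rank 89) and 12.2 in replicate 2 (rank 615). This daf-16 peak lay in an intron, and its nearest annotated start was that of R13H8.5, 325 bp away. At daf-5, which encodes a Ski-like protein, the rank was 204 (30.7), with 32.6 (rank 46) and 7.59 (rank 8462) in replicates 1 and 2. The TGF-beta ligand gene daf-7 had rank 564 (26.0), in an intron of its neighbour trpp-11. The SMAD gene daf-3 had rank 1131 and the insulin receptor gene daf-2 had 4783, while the insulin gene daf-28 had 0 pooled peaks.

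**Figure D4:**
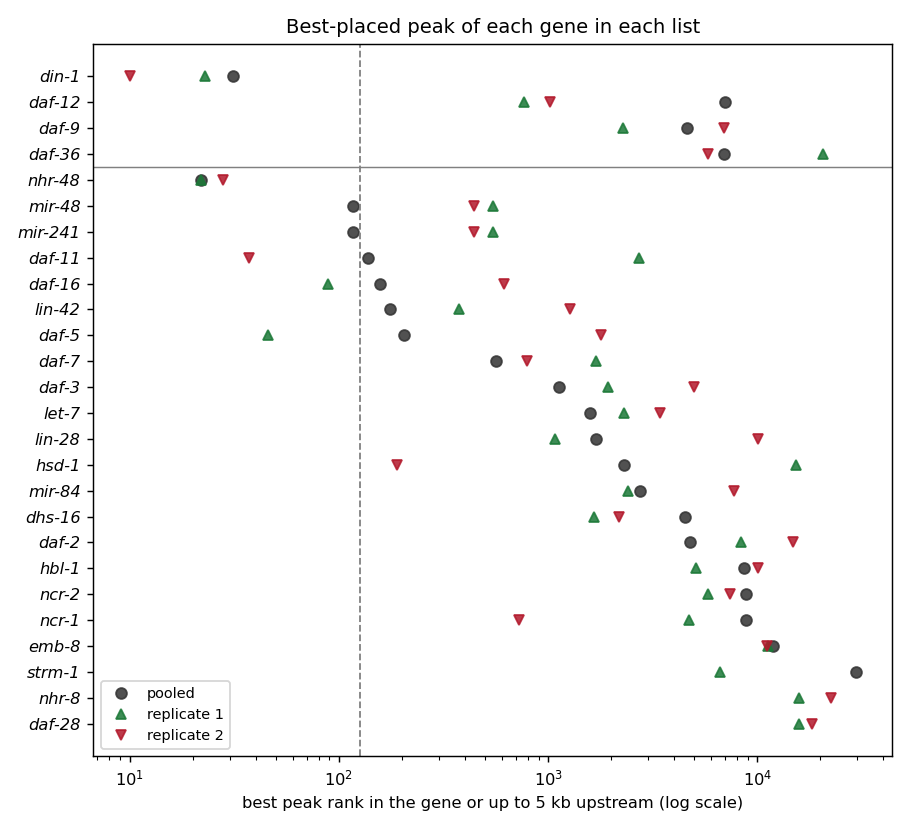
Rank of the best-placed peak (horizontal, log scale, lower is stronger) of each gene in the pooled list (circles), replicate 1 (upward triangles) and replicate 2 (downward triangles), with the 4 members above the solid line and the pathway lists below it. The dashed line marks the thresholded list of 125. Of the members, din-1 alone lies left of it, at pooled rank 31 and replicate ranks 23 and 10, and below it nhr-48 does so in all 3 lists.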

How the data were processed

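ChIP-seq of eGFP-tagged SMA-9 in L2 larvae had 2 biological replicates in 1 group, numbered as in the labels. Per the text that accompanies the deposited files, the ce11 peak lists derive from alignments and a control alignment. The label of the thresholded list names IDR as the method of thresholding. Which aligner, peak caller and cutoff value were used is not given in the sources used here. Column 7 was taken as the signal that the authors deposited. The score in column 9, as deposited by the authors, lies below 0 for 68.6% of pooled peaks, so it was used only to rank. The ce10 lists were not used.

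Summits were assigned with Ensembl release 115 genes of WBcel235, the coordinates of ce11, using Python 3.11.15 and pandas 2.3.3. The gene let-7 was named through the RefSeq table of the same build. A pooled peak counted as present in a replicate when overlapped by at least 1 bp, and its value is that of the overlapping peak of nearest summit. Motifs were searched on both strands in 200 bp around summits. The steps that assign and overlap peaks were checked on simulated peaks. With 1 group and chosen members, no significance test was run. The members and lists were chosen with earlier results of these data known. Named genes are the members, genes at or nearest their thresholded summits, pathway genes, the peaks most like the strongest member peak, and those at the limits. Other genes were chosen after their values were seen. Alternatives were other upstream windows, a stricter list, other overlap rules, ranks by column 9, 100 bp motif windows and each replicate alone. Read depth is unknown.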

Additional observations from a re-analysis of the deposited data

How the results depend on the processing

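Of the alternative values, 28 moved by more than 1.5 times and 30 did not. Another 18 are thresholded counts of 0 at daf-12, daf-9 and daf-36 that stayed 0, to which that limit cannot apply. Some of the motif matches, counts and shares in 100 bp windows stand beside the 200 bp values above. With 2 kb upstream or the gene body only, din-1 kept 1 thresholded peak and its best rank became 52. Each replicate alone gave 1, with best ranks of 10 to 23 for the single lists. Single-list best ranks were 766 to 1018 at daf-12, 2271 to 6896 at daf-9 and 5790 to 20635 at daf-36. Ranking by column 9 gave best ranks of 1 at din-1, tied among 68 peaks, 3008 at daf-12, 7677 at daf-9 and 938 at daf-36, and its scale is unknown. Pooled peaks at daf-9 numbered 3 with 2 kb, 9 with 10 kb and 2 in the gene body, and daf-36 had 1 in its body. Peaks found in both replicates fell to 2 at din-1, 1 at daf-12 and 1 at daf-36 with summits at most 100 bp apart, and to 1 at daf-12 and 1 at daf-36 with an overlap of 50%. Coding genes with a thresholded peak made up 0.451% with 2 kb, 1.28% with 10 kb, 0.205% with the gene body and 0.355% with the 62 strongest peaks, and 0.756% to 0.931% with a single replicate. For the alternatives that moved, the cause was not tested. No paired analysis was possible because there was 1 group.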

Other observations

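Thresholded summits within 100 bp of a coding transcript start that lies at least 1 kb into its gene, as at F07A11.6d of din-1, numbered 3 of 125 (2.4%), against 247 of 30000 pooled summits (0.823%). This count was made after the din-1 values were seen, includes the din-1 peak and was not tested.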
